A study of Mus musculus with 9 samples.

Results

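Gm364, Mrgprx2, Pcdh9, Brinp3 and Gm12415 are 5 of the 32286 features measured in primary tumours that 168FARN cells formed in mice, this being a mouse mammary cancer cell line. They were chosen by the size of the fall of their transcript in tumour cells edited at Kmt2c or Kmt2d, so their falls against wild type (WT) are a description, and calls counted for them below support nothing. Tumours came from WT cells, from cells edited at Kmt2c (Kmt2c KO) and from cells edited at Kmt2d (Kmt2d KO), with 3 tumours in each group, each sequenced as 1 droplet 5′ single-cell RNA library. All cells were injected into the mammary fat pad of female BALB/c mice bought at 5 to 6 weeks of age, and all carried H2BMc, a histone H2B-mCherry reporter. Each knockout was 1 sorted population edited with a pool of 3 guides against exon 1, so that tumours of a group repeat the mouse and not the knockout. The cells of the host kept both genes. Libraries carry the numbers 1 to 3, which are names and pair nothing across groups.

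KMT2C and KMT2D are the catalytic subunits of the complexes that place monomethylation on lysine 4 of histone H3, the mark of enhancers, and loss of either can lower genes that depend on enhancers. The 5 genes do not form a known pathway. Mrgprx2, which RefSeq also lists as Mrgprb10, belongs to the Mas-related G protein-coupled receptors, a family known from sensory neurons and mast cells. Pcdh9 encodes a protocadherin, a cell adhesion protein best known from the nervous system. Brinp3 belongs to a small family of neural proteins named for their induction by bone morphogenetic protein and retinoic acid. Gm364 is a predicted protein-coding gene, and Gm12415 is annotated as a long non-coding RNA. In GRCm38, the build named for the deposited files, Gm364 lies on chromosome X at 57400767 to 57488773, Mrgprx2 on chromosome 7 at 48478619 to 48499270, Pcdh9 on chromosome 14 at 93013700 to 93892834, Brinp3 on chromosome 1 at 146495629 to 146902472 and Gm12415 on chromosome 4 at 84741475 to 84744617, by RefSeq. Brinp3 and Pcdh9 are long genes, with spans of 407 and 879 kb against a median of 22.5 kb over 13114 tested genes with a span.

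The libraries held 21529691 to 125617312 unique molecular identifiers (UMIs, the count of distinct transcripts read). Tumour cells were taken as the 16707 of 58645 kept cells with at least 1 H2BMc UMI. These were 361 to 925 cells per WT tumour, 2244 to 3434 per Kmt2c KO tumour and 1851 to 2817 per Kmt2d KO tumour, with a median of 8661 to 24081 UMIs per cell. The epithelial keratin gene Krt8 was seen in 79.9% of them, at a median depth of 11694 UMIs. In stromal and immune cells (median of 1963 UMIs) it was seen in 3.11%. That share was low by definition, since these clusters were picked for few cells with Krt8, so it supports nothing. Krt18, the usual partner of Krt8, was at or near 0 in every library (at most 0.459 CPM, the UMIs of a gene scaled to a fixed total of all UMIs in the same cells). The same cell barcode stood in another library for 1124 of the 16707 cells (6.73%). Transcripts of Kmt2c lay at 42.0 to 57.6 CPM in the Kmt2c KO and 48.1 to 49.1 CPM in the WT libraries, and those of Kmt2d at 24.3 to 31.9 CPM in the Kmt2d KO and 14.9 to 21.4 CPM in the WT libraries. Small insertions and deletions need not lower a transcript, so neither gene checks a label.

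The library labelled Kmt2d KO 2 stood apart from the other two of its group. Over the 14084 tested genes other than the 5, its tumour cells differed from those of the Kmt2c KO libraries by a root mean square of 0.353, 0.420 and 0.380 in log2 CPM. It differed from Kmt2d KO 1 and 3 by 0.600 and 0.572, whereas these differed from each other by 0.305. Kmt2c KO libraries differed among themselves by 0.335 to 0.368. The fold changes and tests of the 5 genes and the calls of other genes are therefore given with and without it, while correlations over libraries and group means over states include it. Why it stands apart was not tested.

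**Figure D1:**
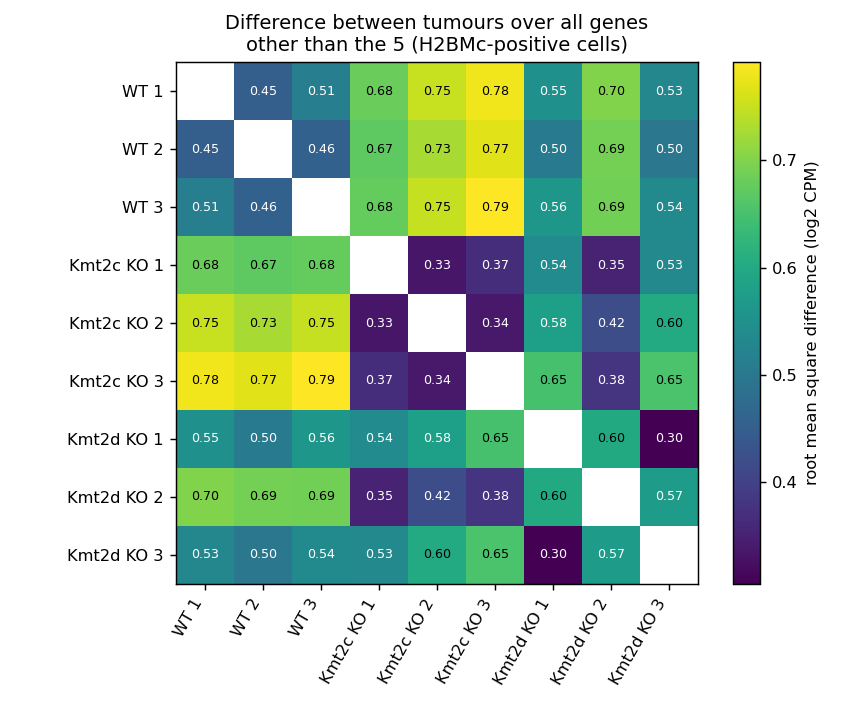
Root mean square difference in log2 CPM between each pair of tumours, over 14084 genes in H2BMc-positive cells, with darker squares closer. Kmt2d KO 2 lies at 0.353 to 0.420 from the Kmt2c KO tumours and at 0.572 to 0.600 from the other Kmt2d KO tumours.

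Gm364 was nearly absent from Kmt2c KO tumour cells and close to the WT level in 2 of 3 Kmt2d KO tumours. WT libraries 1 to 3 held 48.2, 51.3 and 46.8 CPM of it, Kmt2c KO libraries 0.176, 0.722 and 0.599 CPM, and Kmt2d KO libraries 44.6, 0.164 and 50.8 CPM. All Kmt2c KO libraries and Kmt2d KO 2 lay far below WT, while Kmt2d KO 3 lay within the WT range and Kmt2d KO 1 just under it. The Kmt2c KO libraries kept 0.361 to 1.48% of the WT mean. Kmt2d KO 1 and 3 kept 91.5% and 104%, and Kmt2d KO 2 kept 0.336%.

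Mrgprx2 showed the same order with an intermediate level in Kmt2d KO 1 and 3. Its values were 23.2, 19.9 and 19.0 CPM in WT, 0.617, 0.296 and 0.499 CPM in Kmt2c KO and 8.09, 1.08 and 10.8 CPM in Kmt2d KO libraries. No knockout library reached the lowest WT library, and the 4 lowest were the Kmt2c KO libraries and Kmt2d KO 2. Kmt2c KO libraries kept 1.43 to 2.98% of the WT mean, Kmt2d KO 2 kept 5.22%, and Kmt2d KO 1 and 3 kept 39.1% and 52.1%.

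Pcdh9 kept part of its transcript in every knockout library. It was measured at 34.8, 23.9 and 18.6 CPM in WT, at 9.19, 7.98 and 9.51 CPM in Kmt2c KO and at 8.38, 12.9 and 7.76 CPM in Kmt2d KO libraries. WT libraries spread widely and stayed above every knockout library, and the knockouts overlapped each other. The knockout libraries kept 30.1 to 50.2% of the WT mean, the most in Kmt2d KO 2.

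Brinp3 was the most abundant of the 5 in WT tumour cells by CPM, a scale that does not correct for transcript length. Its values were 71.6, 63.8 and 62.0 CPM in WT, 34.7, 27.5 and 34.7 CPM in Kmt2c KO and 13.6, 38.7 and 14.2 CPM in Kmt2d KO libraries. Here Kmt2d KO 1 and 3 were the lowest of all, at 20.6% and 21.6% of the WT mean, against 41.7 to 52.7% in Kmt2c KO and 58.8% in Kmt2d KO 2. With Kmt2d KO 2 set aside, the order of the knockouts was thus the reverse of that of Gm364 and Mrgprx2. With that library the knockout groups overlapped for Gm364 and Brinp3.

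Gm12415 varied little within WT and within Kmt2c KO. It was measured at 41.6, 42.7 and 44.5 CPM in WT, at 11.7, 10.4 and 10.3 CPM in Kmt2c KO and at 18.6, 13.9 and 20.1 CPM in Kmt2d KO libraries. No 2 groups overlapped, and Kmt2d KO 2 lay between Kmt2c KO and the other Kmt2d KO libraries. Kmt2c KO libraries kept 24.1 to 27.4% of the WT mean and Kmt2d KO libraries 32.3 to 46.9%.

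**Figure D2:**
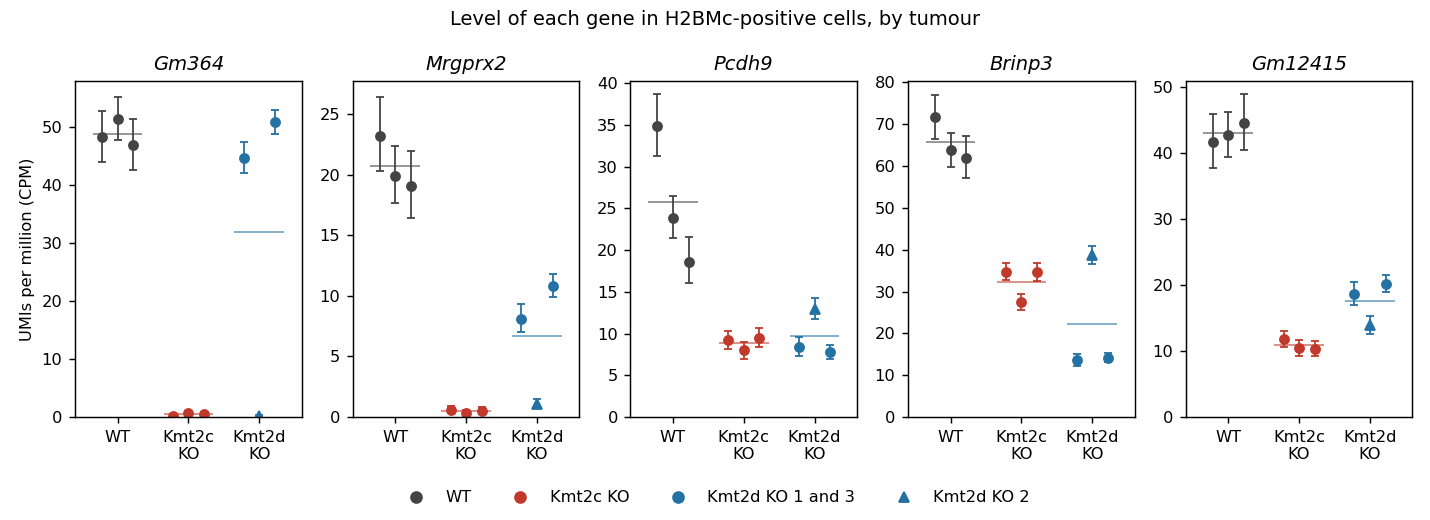
CPM of each gene in H2BMc-positive cells, 1 point per tumour with its exact 95% Poisson interval (counting error only) and a line at the group mean. Gm364 lies at 44.6 to 51.3 CPM in WT and Kmt2d KO 1 and 3 and below 1 CPM in the other 4 tumours, whereas Pcdh9, Brinp3 and Gm12415 keep measurable transcript in every knockout tumour.

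**Figure D3:**
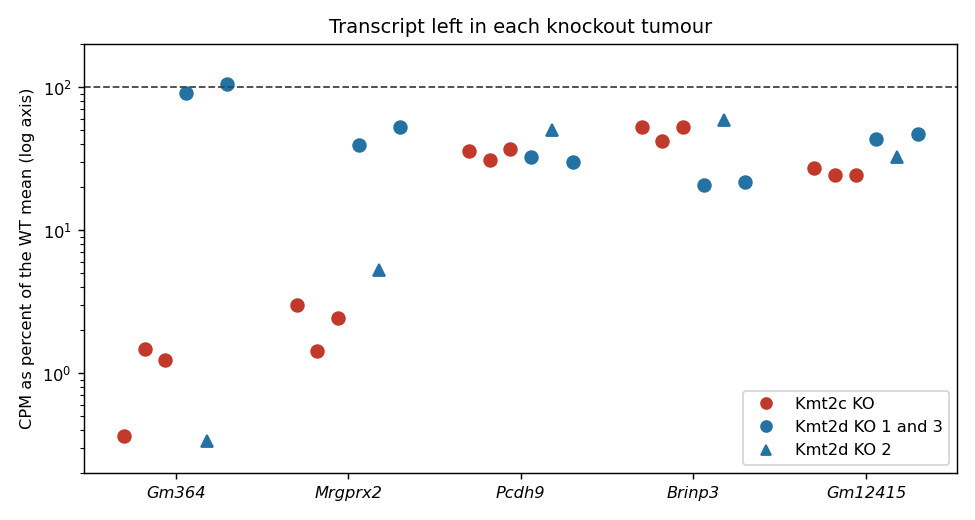
CPM of each gene in each knockout tumour as percent of the WT mean (dashed line at 100%), on a log axis. Values run from 0.336% (Gm364 in Kmt2d KO 2) to 104% (Gm364 in Kmt2d KO 3).

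In the fit across 14089 genes (edgeR quasi-likelihood test, Benjamini-Hochberg adjustment), log2 fold changes against WT in Kmt2c KO were -6.63 ± 1.32 (SE) for Gm364, -5.44 ± 0.71 for Mrgprx2, -1.53 ± 0.23 for Pcdh9, -1.03 ± 0.32 for Brinp3 and -1.99 ± 0.14 for Gm12415. In Kmt2d KO they were -0.64 ± 0.90, -1.65 ± 0.53, -1.44 ± 0.23, -1.61 ± 0.33 and -1.32 ± 0.14 in the same order. Without Kmt2d KO 2 the Kmt2d KO values were -0.05, -1.14, -1.70, -2.26 and -1.17. All 5 genes were among those called at an adjusted p below 0.05 in Kmt2c KO (18.7% of all tested, 9.17% lower and 9.57% higher). In Kmt2d KO 3 of 5 were (Pcdh9, Brinp3 and Gm12415), where 2.27% of all tested were called and 1.23% lower. Without Kmt2d KO 2, 29.1% of all genes were called in Kmt2c KO and 5.79% in Kmt2d KO (2.96% lower). The knockout libraries did not overlap WT for 5 of 5 genes in Kmt2c KO (43.2% of all genes, 21.8% lower) and for 4 of 5 in Kmt2d KO (23.6%, 12.6% lower). The calls of Brinp3 did not hold when most single libraries were left out. Since these contrasts chose the genes, nothing is read from the counts. Ranked from the lowest fold change of 14089, Gm364 was number 6, Mrgprx2 9, Gm12415 117, Pcdh9 192 and Brinp3 397 in Kmt2c KO. In Kmt2d KO Mrgprx2 was number 70, Brinp3 74, Pcdh9 97, Gm12415 128 and Gm364 506. The 2 knockouts share the WT libraries, so their falls are not independent.

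The knockouts were also compared directly. The same libraries took part in the choice of the genes, which limits this test as support. With all libraries none of the 5 passed, where 0.0781% of all genes did (11 of 14089, with 0.0284% lower and 0.0497% higher in Kmt2d KO, and 2506 at an unadjusted p below 0.05). The groups did not overlap for Mrgprx2 and Gm12415, which held for 17.8% of all genes (9.42% lower). The log2 fold change of Kmt2d KO over Kmt2c KO was 5.99 ± 1.30 for Gm364 (adjusted p = 0.0788, edgeR) and 3.79 ± 0.71 for Mrgprx2 (adjusted p = 0.0724). It was 0.67 ± 0.14 for Gm12415 (adjusted p = 0.0780), -0.58 ± 0.32 for Brinp3 (adjusted p = 0.375) and 0.09 ± 0.22 for Pcdh9 (adjusted p = 0.875).

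Leaving out Kmt2d KO 2, as every library was left out in turn, 19.7% of 14208 genes passed (2797, 10.4% lower in Kmt2d KO). Gm364 then differed by 6.58 ± 0.21 (adjusted p = 3.42e-09, edgeR), Mrgprx2 by 4.29 ± 0.21 (adjusted p = 1.70e-07) and Gm12415 by 0.82 ± 0.10 (adjusted p = 1.04e-04), all higher in Kmt2d KO. Brinp3 was lower in Kmt2d KO, by -1.23 ± 0.10 (adjusted p = 7.04e-06). Pcdh9 did not pass, at -0.17 ± 0.19 (adjusted p = 0.580). The library was singled out after its values had been seen, and the SE of Gm364 fell from 1.30 to 0.21 without it. The adjusted p-values of the fit without it, here and below, are therefore a description and not a test. DESeq2 on all 9 libraries called 580 genes, among them Gm364 (adjusted p = 0.00135), Mrgprx2 (adjusted p = 2.26e-04) and Gm12415 (adjusted p = 0.00163), and not Brinp3 (0.516) or Pcdh9 (0.901).

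**Figure D4:**
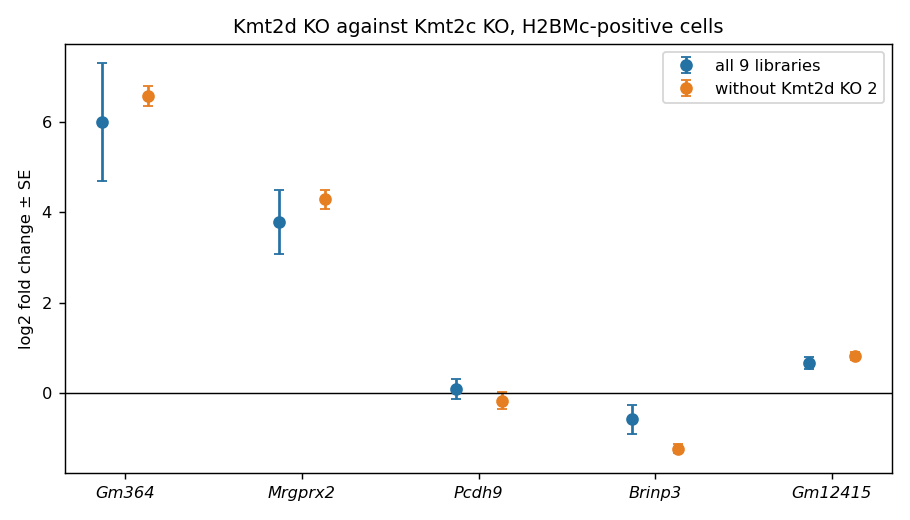
Log2 fold change of Kmt2d KO over Kmt2c KO with its SE for each gene, with all 9 libraries and without Kmt2d KO 2. Gm364 and Mrgprx2 are higher in Kmt2d KO by 3.79 to 6.58, Brinp3 is lower by -0.58 to -1.23, and Pcdh9 lies near 0 in both fits.

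The share of tumour cells with the transcript was compared after each cell had been thinned to 3000 UMIs, since depth differed between libraries. Cells with fewer UMIs were left out. These were 1.08 to 1.66% of cells in WT, 2.09 to 5.74% in Kmt2c KO, and 2.81, 5.23 and 13.6% in Kmt2d KO libraries 1 to 3. Gm364 was then seen in 13.8, 14.4 and 14.6% of WT cells, in 0.0927, 0.121 and 0.137% of Kmt2c KO cells and in 13.01, 0.0520 and 12.1% of Kmt2d KO cells. The exact (Clopper-Pearson) 95% intervals of Kmt2d KO 1 (11.5 to 14.7%) and 3 (10.9 to 13.5%) overlapped those of WT, while the upper bound in Kmt2c KO was at most 0.399%. Mrgprx2 was seen in 8.82, 7.10 and 6.20% of WT, 0.154, 0.0805 and 0.228% of Kmt2c KO and 2.28, 0.364 and 2.88% of Kmt2d KO cells. Kmt2c KO and Kmt2d KO 2 had the lowest shares for both genes.

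Pcdh9 was seen in 9.50, 6.01 and 6.76% of thinned WT cells, in 2.49 to 3.15% of Kmt2c KO cells and in 2.33, 4.63 and 2.42% of Kmt2d KO cells. Brinp3 was seen in 18.8, 17.4 and 19.2% of WT, 6.52 to 9.02% of Kmt2c KO and 4.34, 11.1 and 4.11% of Kmt2d KO cells. Gm12415 was seen in 7.47, 10.3 and 9.01% of WT, 2.37 to 3.21% of Kmt2c KO and 4.95, 3.38 and 4.23% of Kmt2d KO cells. WT lay above every knockout library for each of these 3 genes. Unthinned, 51.0 to 65.7% of WT cells held Gm364, 24.6 to 38.0% Mrgprx2, 22.6 to 29.5% Pcdh9, 47.0 to 55.7% Brinp3 and 39.7 to 49.6% Gm12415, so that a WT cell without a UMI after thinning cannot be called negative.

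A positive cell held close to 1 UMI after thinning, 1.00 to 1.33 for Gm364, 1.00 to 1.14 for Mrgprx2 and 1.00 to 1.12 for Gm12415 over the libraries. Brinp3 was found at 1.21 to 1.54 UMIs and Pcdh9 at 1.08 to 1.67. The share of cells holding none of the 5 was 52.7 to 55.4% in WT, 85.4 to 88.8% in Kmt2c KO, 75.8% and 76.3% in Kmt2d KO 1 and 3, and 81.8% in Kmt2d KO 2. Exact permutation tests of the thinned shares between the knockouts (two-sided, 3 against 3) gave p = 0.1 for Mrgprx2 and Gm12415, 0.4 for Gm364, 0.6 for Brinp3 and 1.0 for Pcdh9, with adjusted values of 0.25 to 1.0. The smallest p of this design is 0.1, so it could not pass 0.05. Without Kmt2d KO 2 the exact p was 0.2 for each gene, the smallest that 2 against 3 libraries allow.

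Whether the loss was complete was examined against the free RNA that droplets take up. Without thinning, 5, 11 and 11 cells of Kmt2c KO libraries 1 to 3 and 4 cells of Kmt2d KO 2 held Gm364, and none of these had a barcode found in a WT library. For Mrgprx2 these were 21, 9 and 14 cells and 32 cells, of which 2 in Kmt2c KO 1 had such a barcode. Such barcodes were rare, in 29 of 3434, 18 of 2599 and 15 of 2244 tumour cells of Kmt2c KO 1 to 3. Kmt2d KO 2 had them in 10 of 2028. With so few, nothing is read from these counts. Thinned to 1000 UMIs, as stromal and immune cells require, 3 of 8260 Kmt2c KO tumour cells (0.0363%) held Gm364, against 1 of 1115 stromal and immune cells of the same tumours (0.0897%). Mrgprx2 was in 2 of 8260 tumour cells (0.0242%) and in 0 of 1115 stromal and immune cells. The limit set for a count of 0 is 3 positive cells, here a share of 0.269%, and is not an exact interval. The remaining Gm364 and Mrgprx2 of Kmt2c KO tumours could thus not be told from background at this depth. Intervals and limits cover counting error only.

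Pcdh9 and Gm12415 stayed above it. In the same cells of Kmt2c KO tumours Pcdh9 was seen in 0.993% and Gm12415 in 1.00%, against 0 of 1115 stromal and immune cells for both. Brinp3 was seen in 3.54% of tumour cells and 1.70% of stromal and immune cells, but its shares by library overlapped (2.73 to 4.04% against 1.09 to 3.54%). The latter share was 0.722% in WT tumours, where 8.08% of tumour cells held it. Brinp3 in stromal and immune cells was measured at 0 to 43.2 CPM over the libraries.

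Tumour-cell states were taken from clusters made without the 5 genes and without H2BMc. The resolution chosen first kept hypoxic, matrix and interferon genes in 1 cluster, so that the finer clustering is described. It gave a hypoxic cluster (led by Ero1l, Ptgs2, Ndrg1 and Slc2a1), an interferon cluster (Ly6a, Igtp, Ifit1), a matrix-rich cluster (Ptgds, Lum, Aspn), an S-phase cluster (Mcm3, Mcm6) and 2 mitotic clusters (A with Cdc20 and Cenpa, B with Aurkb and Top2a). The groups filled them unequally. The matrix-rich cluster held 29.4 to 35.9% of H2BMc-positive cells in WT, 41.9% and 37.8% in Kmt2d KO 1 and 3, 2.45 to 5.66% in Kmt2c KO and 5.72% in Kmt2d KO 2. The interferon cluster held 42.7 to 56.9% in Kmt2c KO, 32.9% in Kmt2d KO 2, and 5.24% and 4.58% in Kmt2d KO 1 and 3. In WT it held 2.59% and 5.54% in libraries 2 and 3 (24 and 20 cells), and WT 1 had under 20 cells there. Levels are therefore given within each state, as a description with no test.

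Gm364 was low in Kmt2c KO and in Kmt2d KO 2 in each state. In the matrix-rich cluster it was measured at 49.2, 56.0 and 56.5 CPM in WT, at 52.8 and 49.1 CPM in Kmt2d KO 1 and 3, and at 0 UMIs in Kmt2c KO 1 to 3 (187, 147 and 55 cells, limits of 2.23, 2.15 and 5.12 CPM) and in Kmt2d KO 2 (116 cells, limit of 2.06 CPM). Each limit is the CPM that 3 UMIs would make and not an exact interval. Over the 6 states the Kmt2c KO means were 0 to 2.26% of the WT mean, while Kmt2d KO 1 and 3 lay at 33.4 to 55.8 CPM. The hypoxic cluster held 1 WT library with at least 20 cells (36 cells of WT 2, 16 UMIs of Gm364, 39.7 CPM), so that WT had no replicate there.

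Mrgprx2 gave a like picture. Its Kmt2c KO means were 0 to 3.60% of the WT mean in the interferon, matrix-rich, S-phase and both mitotic clusters, and Kmt2d KO 1 and 3 were measured in them at 2.93 to 12.4 CPM against 12.4 to 29.0 CPM in WT. In the hypoxic cluster WT 2 held 1 UMI of Mrgprx2 (2.48 CPM, exact 95% Poisson interval 0.0628 to 13.8 CPM), and Kmt2d KO 1 and 3 held 7.67 and 13.9 CPM, so that no fall from WT was measurable in that state. The same WT cells held 2 UMIs of Pcdh9 and 9 of Gm12415.

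Brinp3 and Pcdh9 depended on the state. In WT, Brinp3 reached 133, 116 and 117 CPM in the matrix-rich cluster, against 47.4 to 51.1 CPM in the S-phase and 21.3 to 38.3 CPM in the mitotic clusters. Pcdh9 reached 61.4, 42.6 and 37.8 CPM in the matrix-rich cluster and 10.9 to 20.6 CPM in the cycling clusters. Both were thus highest in a state that held few cells of Kmt2c KO tumours and of Kmt2d KO 2, and the part of this in the falls over all tumour cells was not tested. In the S-phase and mitotic clusters Kmt2c KO kept 30.02 to 31.4% of WT Brinp3 and 37.2 to 58.3% of WT Pcdh9, below every WT library.

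In the matrix-rich cluster Brinp3 lay at 84.7, 55.3 and 145 CPM in Kmt2c KO, which overlaps WT, at 81.8 CPM in Kmt2d KO 2, and at 22.3 and 21.8 CPM in Kmt2d KO 1 and 3. In the interferon cluster it lay at 54.9, 34.7 and 47.7 CPM in Kmt2c KO and at 2.93 and 13.9 CPM in Kmt2d KO 1 and 3. WT 2 and 3 lay at 46.8 and 56.9 CPM there, from only 24 and 20 cells. The fall of Brinp3 in Kmt2c KO was therefore not seen in every state, whereas Kmt2d KO 1 and 3 were below WT in each. Pcdh9 overlapped WT in the interferon cluster for both knockouts, against the same few WT cells. It also did so in the hypoxic cluster, where WT 2 held 2 UMIs, and in the matrix-rich cluster for Kmt2d KO 2 (39.9 CPM).

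Gm12415 was highest in the S-phase cluster in WT, at 55.7, 51.2 and 51.8 CPM. That cluster held a smaller share of tumour cells in every knockout library than in any WT library. The part of this in the fall of Gm12415 over all tumour cells was not tested. Gm12415 was lower in the knockouts in each of the 5 states where more than 1 WT library could be compared. Kmt2c KO kept 16.3 to 27.9% of the WT mean in the interferon, matrix-rich and mitotic clusters and 52.4% in the S-phase cluster. Kmt2d KO kept 23.8 to 49.9% in these 5 states. In the hypoxic cluster Kmt2d KO 2 and 3 (25.3 and 38.3 CPM) were not below WT 2 (22.3 CPM).

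**Figure D5:**
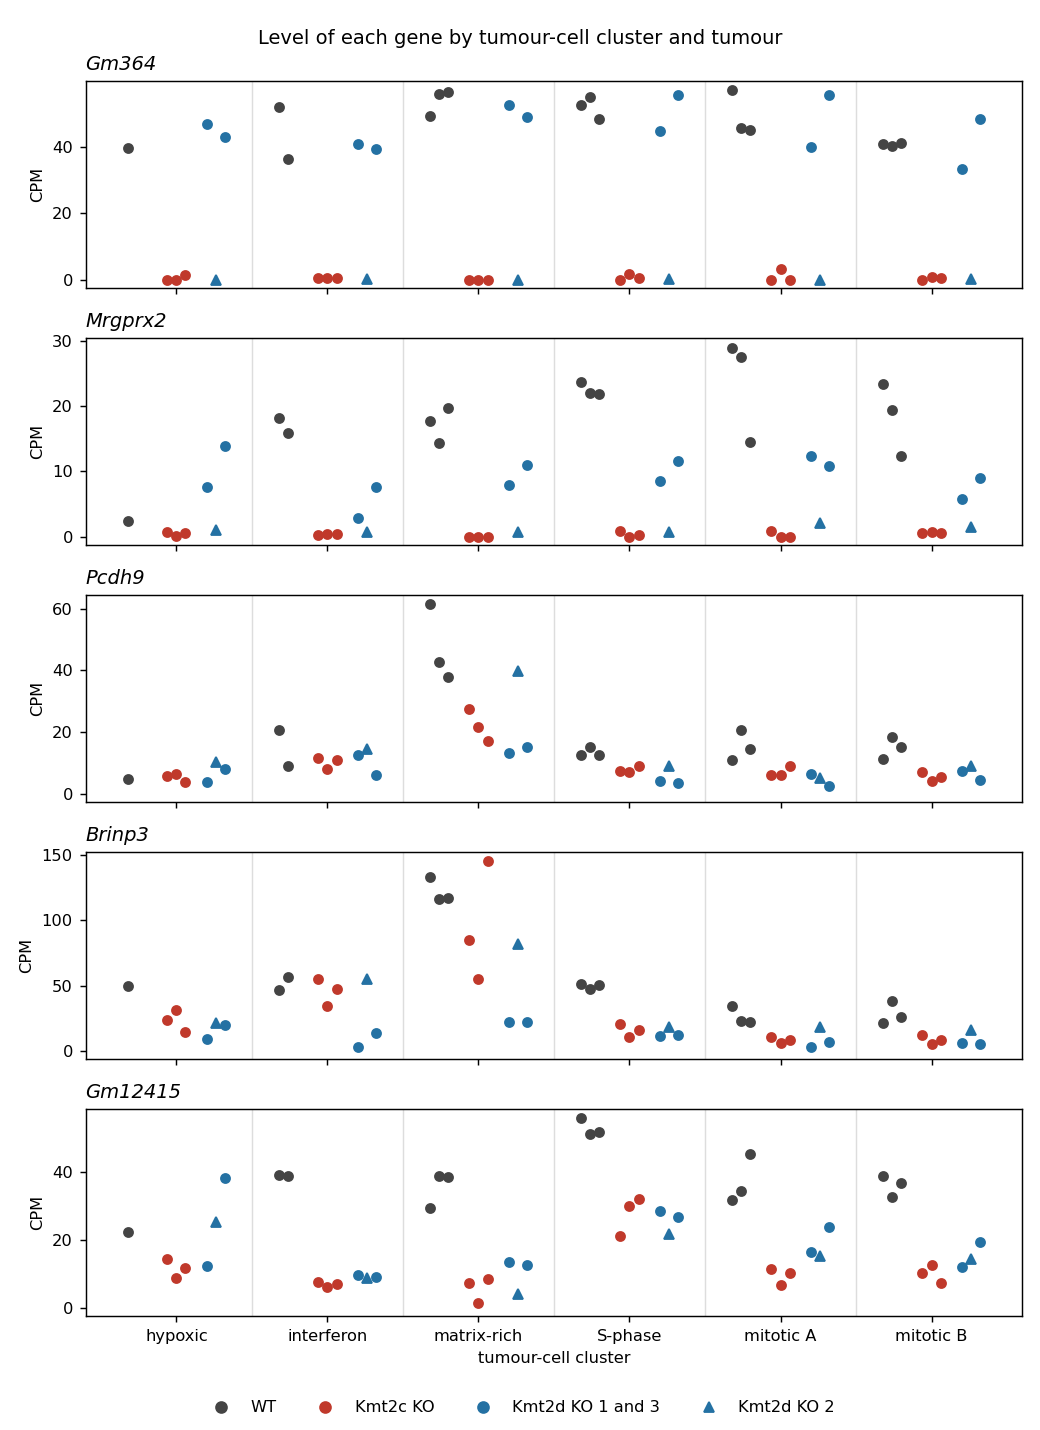
CPM of each gene in H2BMc-positive cells of the 6 tumour-cell clusters, 1 point per tumour with at least 20 cells there, with triangles for Kmt2d KO 2. Gm364 is at 0 to 3.34 CPM in all Kmt2c KO tumours and clusters, and Brinp3 and Pcdh9 are highest in the matrix-rich cluster in WT.

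A cluster outside these states, taken from the clustering chosen first (resolution 0.2), carried the highest levels of Brinp3 and Pcdh9. Both are among its 10 leading genes and for that reason no finding. Its 2128 cells were led by Nhs, Adamts6, Gpc6 and Bnc2, had H2BMc in 8.32% and Krt8 in 15.6% of cells, and had a median of 9.02% mitochondrial counts. It stays unnamed. Its leading genes other than Brinp3 and Pcdh9 have a median span of 364 kb. Brinp3 was measured there at 541 to 582 CPM in WT, 416 to 550 CPM in Kmt2c KO, 644 CPM in Kmt2d KO 2, and 159 and 117 CPM in Kmt2d KO 1 and 3. Gm364 lay at 31.0 to 44.2 CPM in WT, at 48.6 and 44.4 CPM in Kmt2d KO 1 and 3, and at 0 to 1.12 CPM in Kmt2c KO and Kmt2d KO 2. Unlike in H2BMc-positive cells, Brinp3 in Kmt2d KO 2 was above every WT library there and Kmt2c KO overlapped WT, and Gm364 in Kmt2d KO 1 and 3 was above every WT library.

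Other measures moved with the libraries. In H2BMc-positive cells H2BMc itself lay at 72.7 to 113 CPM in WT, 142 to 153 CPM in Kmt2c KO and 90.6 to 117 CPM in Kmt2d KO libraries. Krt8 lay at 550 to 569 CPM in WT, 235 to 339 CPM in Kmt2c KO, 466 and 434 CPM in Kmt2d KO 1 and 3, and 304 CPM in Kmt2d KO 2. The summed level of 5 fibroblast markers was 231 to 322 CPM in WT, 184 to 252 CPM in Kmt2c KO, and 321, 162 and 299 CPM in Kmt2d KO libraries 1 to 3, with 4 or 5 of 5 detected in each library (Col14a1 at 0 in WT 1 and 3). That of 9 mast cell markers was 3.78 to 9.71 CPM in WT and 9.60 to 31.5 CPM in the knockouts, with 7 to 9 detected (Fcer1a and Ms4a2 at 0 in WT 1 and 3, Ms4a2 at 0 in Kmt2c KO 1). That of 8 neural and Schwann cell markers was 2.78 to 3.50 CPM in WT and 4.15 to 5.98 CPM in the knockouts, with 4 to 6 detected and Sox10 at 0 in all 9 libraries. That of 5 endothelial markers was 6.90 to 12.8 CPM in WT, 16.2 to 25.2 CPM in Kmt2c KO, and 8.01, 21.7 and 12.6 CPM in Kmt2d KO libraries, with 3 to 5 detected (Kdr and Emcn at 0 in WT 1, Kdr in Kmt2c KO 1, Emcn in Kmt2c KO 2). That of 6 macrophage markers was 14.5 to 23.1 CPM in WT, 22.6 to 38.1 CPM in Kmt2c KO and 15.1 to 23.9 CPM in Kmt2d KO, with 5 or 6 detected (Adgre1 at 0 in WT 3). The sums of the mural, dendritic, T and NK, and B cell lists overlapped between WT and each knockout. The fibroblast marker Clec3b was also a leading gene of the matrix-rich tumour-cell cluster, so the fibroblast sum does not measure fibroblasts alone. The limit on mitochondrial counts removed 11.6 to 33.8% of all deposited barcodes in WT, 7.78 to 9.96% in Kmt2c KO and 13.3 to 17.6% in Kmt2d KO libraries. The part of these measures in the levels of the 5 genes was not tested.

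Across the 9 libraries the log2 level of Gm364 ran with that of Mrgprx2 (Pearson r = 0.94) and Gm12415 (r = 0.83), and Mrgprx2 ran with Gm12415 (r = 0.93). Pcdh9 ran with Brinp3 (r = 0.86), with Gm12415 (r = 0.82) and less so with Mrgprx2 (r = 0.64). Gm364 and Brinp3 gave r = 0.03, and the remaining 3 pairs gave 0.24 to 0.55. These are descriptions over libraries that share groups. The genes most like Gm364 were E330013P04Rik, Pdhx and Renbp (r = 0.98 to 0.99), of which Renbp, which encodes a renin-binding epimerase, was measured at 19.6 to 27.3 CPM in WT, 4.89 to 8.24 CPM in Kmt2c KO and 26.3, 3.80 and 21.5 CPM in Kmt2d KO libraries. Those most like Mrgprx2 were Sec14l2, Raet1e and Scn3a (r = 0.99 to 1.00). Raet1e, a ligand of the NK cell receptor NKG2D, lay at 42.0 to 44.8 CPM in WT, 19.0 to 21.5 CPM in Kmt2c KO and 37.7, 24.0 and 36.8 CPM in Kmt2d KO libraries. Pcdh9 was most like Dnah7b, A830082K12Rik and Igsf3 (r = 0.98 to 1.00), Brinp3 most like Lsm12, Slc5a8 and Ptprtos (r = 0.97 to 0.99), and Gm12415 most like Myh14, Zcchc9 and Prcp (r = 0.99 to 1.00). Likeness is of the pattern and not of the size. Myh14, a non-muscle myosin heavy chain, had a log2 fold change in Kmt2c KO of -1.94, whereas that of Pdhx was -0.20.

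The windows around the annotated starts of the 5 genes (250 bases before to 50 bases after, RefSeq, GRCm38.p6) are shown as a description. The first listed start is used where a gene has several. They are chrX:57408899-57409198 (plus strand) for Gm364, chr7:48499221-48499520 (minus) for Mrgprx2, chr4:84741225-84741524 (plus) for Gm12415, chr14:93890630-93890929 (minus) for Pcdh9 and chr1:146495379-146495678 (plus) for Brinp3. The windows of Gm364 and Pcdh9 lie inside the gene spans given above and not at their outer ends. Capitals mark TGANTCA, the core that AP-1 factors (Fos and Jun dimers) bind, which reads the same on both strands.
Gm364: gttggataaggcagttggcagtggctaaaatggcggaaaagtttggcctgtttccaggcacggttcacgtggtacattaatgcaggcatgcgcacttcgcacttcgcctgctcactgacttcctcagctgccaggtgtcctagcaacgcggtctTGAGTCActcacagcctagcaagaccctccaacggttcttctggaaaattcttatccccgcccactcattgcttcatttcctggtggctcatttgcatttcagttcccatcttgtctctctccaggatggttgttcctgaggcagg
Mrgprx2: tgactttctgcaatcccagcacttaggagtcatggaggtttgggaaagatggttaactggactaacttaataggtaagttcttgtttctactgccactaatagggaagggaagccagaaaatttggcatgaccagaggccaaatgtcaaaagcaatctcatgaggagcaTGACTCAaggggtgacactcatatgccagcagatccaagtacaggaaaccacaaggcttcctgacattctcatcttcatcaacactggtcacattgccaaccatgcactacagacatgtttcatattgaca
Gm12415: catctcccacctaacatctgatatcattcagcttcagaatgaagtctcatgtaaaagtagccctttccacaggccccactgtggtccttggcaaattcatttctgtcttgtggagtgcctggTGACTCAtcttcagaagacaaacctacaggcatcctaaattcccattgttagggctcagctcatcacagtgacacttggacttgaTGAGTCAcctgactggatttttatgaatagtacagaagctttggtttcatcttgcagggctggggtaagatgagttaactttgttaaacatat
Pcdh9: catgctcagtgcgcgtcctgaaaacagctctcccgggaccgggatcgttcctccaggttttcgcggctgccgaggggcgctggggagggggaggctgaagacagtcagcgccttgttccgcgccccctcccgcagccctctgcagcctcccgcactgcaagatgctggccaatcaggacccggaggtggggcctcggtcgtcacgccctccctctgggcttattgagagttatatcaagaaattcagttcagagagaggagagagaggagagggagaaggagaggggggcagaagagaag
Brinp3: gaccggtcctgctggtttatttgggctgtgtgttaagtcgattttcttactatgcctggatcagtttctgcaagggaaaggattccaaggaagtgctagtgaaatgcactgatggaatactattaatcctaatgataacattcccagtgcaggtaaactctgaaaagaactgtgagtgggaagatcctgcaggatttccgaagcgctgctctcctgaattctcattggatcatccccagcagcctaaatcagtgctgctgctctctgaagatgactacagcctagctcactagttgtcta

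TGANTCA was present in 3 of the 5 genes and in 7.81% of 32817 promoter windows. The match began 96 bases before the listed start in Gm364, 81 bases before it in Mrgprx2, and 128 and 43 bases before it in Gm12415. At least 2 matches were held by 0.460% of all windows. No window of Pcdh9 or Brinp3, over all listed starts, held these letters. Of the other motifs searched on both strands, TATAAA (in 13.6% of all windows) was in none of the 5 genes, CCAAT (37.4%) was in Pcdh9 and Brinp3, and GGGCGG (35.6%) and CACGTG (7.15%) were in Gm364. No 2 of these matches overlap. The windows of Mrgprx2 and Gm12415 held 0 CpG dinucleotides, that of Brinp3 4, that of Gm364 10 and that of Pcdh9 18, against a median of 7. The motifs were picked with these windows in view, and a match is not evidence of binding. The part of these motifs in the levels of the 5 genes was not tested. No shared regulation is read from the matches.

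Of the 50 genes nearest to them, 5 on each side, 10 were expressed enough to test, and none was called lower in either knockout against WT with all libraries. Without Kmt2d KO 2, Cntln, a centrosomal protein gene 137 kb beyond Gm12415, was called lower in Kmt2c KO than in WT (-0.31, adjusted p = 0.0383, edgeR) and higher in Kmt2d KO than in Kmt2c KO (0.50, adjusted p = 0.00580). None of the neighbours of Pcdh9 was testable. Rbmx, an RNA-binding protein gene 7.72 kb from Gm364, had a log2 fold change of -0.24 in Kmt2c KO (adjusted p = 0.287, edgeR). Bnc2, 65.4 kb from Gm12415, had one of 0.38 (adjusted p = 0.128), and without Kmt2d KO 2 it was called higher in Kmt2c KO than in WT (0.38, adjusted p = 0.00342) and lower in Kmt2d KO than in Kmt2c KO (-0.61, adjusted p = 3.78e-04). 3 genes far beyond Brinp3 rose in Kmt2c KO, where 9.57% of all genes were called higher (18.7% in either direction). They were Ptgs2, which encodes the prostaglandin synthase COX-2 and lies 3198 kb away (2.83, adjusted p = 0.0228), Ptgs2os (1.38, adjusted p = 0.0223) and Pla2g4a, which encodes the phospholipase that feeds it (0.75, adjusted p = 0.0222), and all 3 were also called without Kmt2d KO 2. Between the knockouts Pla2g4a (-0.79, adjusted p = 0.00168, edgeR) and Ptgs2os (-1.19, adjusted p = 0.0115) were then lower and Ptgs2os2 (1.08, adjusted p = 0.0312) higher in Kmt2d KO. Ptgs2 was also a leading gene of the hypoxic cluster. That cluster held 9.44 to 20.7% of H2BMc-positive cells in Kmt2c KO and 3.89% in WT 2. The part of this in the rise of Ptgs2 was not tested.

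Few relatives of the 5 genes were expressed enough to test. Of 19 other Mas-related receptor genes 3 were tested (Mrgpra6, Mrgpre and Mrgprf) and none was called in the 3 contrasts. Mrgprf, the most abundant, lay at 25.2 to 27.5 CPM in WT, 16.0 to 20.8 CPM in Kmt2c KO and 24.3, 14.1 and 27.6 CPM in Kmt2d KO libraries, and without Kmt2d KO 2 it was called lower in Kmt2c KO than in WT (-0.46, adjusted p = 0.00860, edgeR) and higher in Kmt2d KO than in Kmt2c KO (0.45, adjusted p = 0.0173). Of 11 other non-clustered protocadherins 7 were tested. Pcdh17 (-0.44 ± 0.13, adjusted p = 0.0412, edgeR) and Pcdh18 (-0.65 ± 0.20, adjusted p = 0.0448) fell in Kmt2c KO, where 9.17% of all genes were called lower and 9.57% higher, and none was called in Kmt2d KO. Neither of the 2 other Brinp genes was expressed enough to test. Of 7 cadherin and catenin genes 1 was called, Cdh5, which marks endothelial cells (1.22, adjusted p = 0.0243 in Kmt2c KO). Over all genes without Kmt2d KO 2, 29.1% were called in Kmt2c KO (14.7% lower), 5.79% in Kmt2d KO (2.96% lower) and 19.7% between the knockouts (10.4% lower). In that fit 1 protocadherin was called higher and 2 lower in Kmt2c KO and none in Kmt2d KO against WT. Between the knockouts 1 was called in each direction. Of the cadherin and catenin genes 1 was then called higher and 2 lower in Kmt2c KO, 1 lower in Kmt2d KO, and 1 in each direction between the knockouts.

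The pathways after which Brinp3 is named were counted next, against the same 9.57% higher and 9.17% lower over all genes. Of 13 tested genes of the retinoic acid pathway, 4 rose and 2 fell in Kmt2c KO, with a median log2 fold change of 0.33 against 0.00 over all genes. Rxra (0.52, adjusted p = 0.00841, edgeR) and Rara (0.48, adjusted p = 0.0191), which encode retinoid receptors, rose. Rdh10, which encodes a retinol dehydrogenase (-0.54, adjusted p = 0.00503), was among those that fell. Of 15 tested genes of the BMP pathway, 3 rose and 2 fell, with a median of 0.23. Id1, a direct target (1.16, adjusted p = 0.00564), and the inhibitory Smad7 (0.94, adjusted p = 0.0116) rose, and Smad5, which carries the signal (-0.32, adjusted p = 0.0157), and the receptor gene Bmpr1b (-3.37, adjusted p = 0.0201) fell. Of 12 tested genes of Gq signalling, through which Mas-related receptors can act, Rgs2 rose (0.77, adjusted p = 0.00882) and Plcb4 (-0.41, adjusted p = 0.00547) and Prkcb (-0.95, adjusted p = 0.0121) fell. None of these genes was called in Kmt2d KO against WT or between the knockouts with all libraries. Without Kmt2d KO 2, Kmt2c KO had 5 higher and 2 lower retinoic acid genes against WT. It had 4 and 2 BMP genes and 1 and 2 Gq genes, where 29.1% of all genes were called and 14.7% lower. Kmt2d KO then had 1 lower retinoic acid gene, 1 higher BMP gene and 1 higher Gq gene against WT. Of all genes 5.79% were called there and 2.96% lower. Between the knockouts 1, 2 and 2 genes of these pathways were then higher and 2, 4 and 2 lower in Kmt2d KO. Of all genes 19.7% were called there and 10.4% lower.

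Other genes fell further than the 5 by the same measure. In Kmt2c KO the lowest that did not overlap WT and were called were Rims1 (-8.16, adjusted p = 8.16e-04, edgeR), Plpp6 (-8.04, adjusted p = 0.00426) and 3830417A13Rik (-8.02, adjusted p = 7.29e-05). In Kmt2d KO they were 3830417A13Rik (-9.73, adjusted p = 8.66e-05), Gm36644 (-5.69, adjusted p = 0.00826) and Ldhb (-5.01, adjusted p = 0.00363). All 6 calls were also made without Kmt2d KO 2. Fitted folds of genes with libraries at 0 depend on the prior count and are no bounds. 3830417A13Rik was measured at 7.44, 12.7 and 16.7 CPM in WT and at 0 to 0.0890 CPM in all 6 knockout libraries, Kmt2d KO 2 included, so that it was near 0 in every knockout library, unlike Gm364. Rims1, a synaptic scaffold gene, was measured at 9.90 to 16.6 CPM in WT, 0 to 0.0642 CPM in Kmt2c KO and 0.286, 0.0320 and 1.62 CPM in Kmt2d KO libraries.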

How the data were processed

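Suspensions of 9 tumours, cleared of dead cells and debris on Percoll layers, were sequenced with a 5′ droplet kit. The authors ran Cell Ranger 7.0.1 on mm10, per the labels, and deposited 1 matrix holding raw UMI counts (whole numbers) by gene and droplet. Whether intronic reads were counted or depth was equalised at aggregation is stated neither by the labels nor by the methods. The library of a barcode was read from its suffix and its genotype from the letter in the authors' aggregation table. 0 columns of other series were used.

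Droplets passed with between 500 and 7500 genes and a mitochondrial share under 15%. They were clustered (scanpy 1.11.5, Python 3.11.15; 2000 variable genes, 30 components, 20 neighbours, Leiden resolution 0.2, alternative 0.5) without the 5 genes and H2BMc. Clusters with at most 5% H2BMc-positive and 10% Krt8-positive cells were taken as stroma or immune. Those with at least 25% and 50%, and at most 80% of cells from 1 library, were tumour-cell clusters. At resolution 0.2 these held 82.5% of H2BMc-positive cells in Kmt2d KO 2, 85.7% in Kmt2d KO 3 and 93.3 to 98.8% in other libraries. Outside them lay a shallow cluster (median of 2802 UMIs) 98.8% from Kmt2d KO 2, and another (1387 UMIs) 87.1% from Kmt2d KO 3. H2BMc-positive cells of all clusters entered the levels and distances over tumour cells. Levels of groups under 20 cells were left out. No doublet caller was run. An alternative left out cells with Ptprc, Pecam1 or Cdh5.

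UMI counts of H2BMc-positive cells were summed per tumour and tested with edgeR 4.0.16 (R 4.3.3; filterByExpr, TMM, glmQLFit, glmQLFTest, genotype as the only factor), adjusted over all genes, with calls at 0.05. This replaces the study's test over cells, since cells are not replicates. CPM of likeness, neighbours and lists use TMM scaling, and likeness is Pearson's r of log2 CPM (prior count 2). DESeq2 1.42.0 was an alternative. In bulk sums, fewer cells of a state and less RNA per cell cannot be told apart.

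The 5 genes and the lists were chosen with earlier results of these data known. Named besides them are Kmt2c, Kmt2d, H2BMc and Krt8, the 3 genes most like each, the 3 lowest other called genes per knockout without overlap, called list genes (up to 4 per list) and called neighbours. Others, such as Mrgprf, Rbmx, Bnc2 and Renbp, were chosen after their values were seen. The values of 1 called list gene are not reported here.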

Additional observations from a re-analysis of the deposited data

How the results depend on the processing

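No paired analysis was possible because the libraries carry no replicate number that can be matched to the labels. Of 436 values under alternatives, 372 were counted as unchanged, 53 as moved and 11 as newly passing the threshold, and none was counted as reversed. These labels do not track every change of sign or size. A fold against WT counted as unchanged if it moved by less than its SE with all libraries. A share or a mean over states did so within its standard deviation over libraries. Folds between the knockouts did so if they passed, or failed, alike. Gm364 in Kmt2d KO thus counted as unchanged, at -0.64 ± 0.90 with all libraries and -0.05 without Kmt2d KO 2. The log2 fold change of Pcdh9 between the knockouts was 0.09 with all libraries and -0.17 without Kmt2d KO 2, and passed in neither fit. The falls against WT were judged by size alone. Brinp3 was not among the called genes in Kmt2c KO under DESeq2, without any 1 WT or Kmt2c KO library, without cells holding Ptprc, Pecam1 or Cdh5, or with unshared barcodes, nor in Kmt2d KO without any 1 library other than Kmt2d KO 2. Mrgprx2 was among them in Kmt2d KO without Kmt2d KO 2 and with no low-count filter. Where a change is given below, the cause was not tested. Genes called between Kmt2d KO and Kmt2c KO were 580 with DESeq2, 521 with no low-count filter, 121 in cells with at least 2 H2BMc UMIs, 0 in all cells of the tumour-cell clusters and 0 without cells holding Ptprc, Pecam1 or Cdh5. They were 3 in H2BMc-positive cells of tumour-cell clusters and 0 in cells with a barcode in no other library, both chosen after seeing the data. Genes called in Kmt2d KO against WT were 703, 516 and 209 under the first 3 of these settings. Under DESeq2 and with no filter the Kmt2d KO over Kmt2c KO log2 fold changes that passed were 5.97 and 5.98 for Gm364, 3.80 and 3.78 for Mrgprx2, and 0.67 and 0.66 for Gm12415 (0.61 with at least 2 H2BMc UMIs). Pcdh9 in Kmt2d KO against WT was -1.18 with at least 2 H2BMc UMIs.

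Leaving out each library in turn, called genes ranged from 1256 (without WT 2) to 4140 (without Kmt2d KO 2) in Kmt2c KO against WT. In Kmt2d KO against WT they ranged from 98 (without WT 1) to 823 (without Kmt2d KO 2). Between the knockouts 0 were called without any 1 WT library, without Kmt2c KO 2 or 3, and without Kmt2d KO 1 or 3. There 71 were called without Kmt2c KO 1 and 2797 without Kmt2d KO 2. Kmt2d KO over Kmt2c KO ranged from 5.48 to 6.58 for Gm364, 3.21 to 4.29 for Mrgprx2, -1.23 to -0.33 for Brinp3 and 0.56 to 0.82 for Gm12415. Against WT, Kmt2d KO ranged from -2.22 to -1.14 for Mrgprx2, -1.70 to -1.19 for Pcdh9, -2.26 to -1.36 for Brinp3 and -1.43 to -1.17 for Gm12415, and Kmt2c KO from -1.69 to -1.28 for Pcdh9. The share of Pcdh9-positive Kmt2c KO cells ranged from 35.5 to 45.1% of WT.

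As percent of the WT share, Gm364 in Kmt2c KO was 0.344 thinned to 1500 UMIs, 0.605 unthinned, 1.04 with at least 2 H2BMc UMIs and 0.529 with no limit on mitochondrial counts. Pcdh9 there was 30.5 thinned to 1500 UMIs, 28.9 unthinned and 28.9 with at least 2 H2BMc UMIs, and Brinp3 was 33.4 unthinned. Gm12415 there was 22.7 thinned to 1500 UMIs, 21.0 unthinned, 23.9 in the tumour-cell clusters and 23.8 with no mitochondrial limit, and 38.1 unthinned in Kmt2d KO. As a mean over the 4 states of resolution 0.5 with all 3 WT libraries (matrix-rich, S-phase and both mitotic clusters), Kmt2c KO kept 1.70% of Mrgprx2 and 47.1% of Pcdh9. In the interferon and hypoxic clusters, left out of that mean, it kept 68.9% and 107% of Pcdh9. The low yield of WT tumour cells limits the precision within states, most in the hypoxic and interferon clusters.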
